A study of Mus musculus with 5 samples.

Results

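The genes described here are 64 chaperone and co-chaperone genes of the cytosol, mitochondria and other compartments, measured by 84 probes. They were taken from the 9669 genes on the array whose probes carry a single gene symbol, as all symbols of the Hspa, Hspb, Hspe, Hsph, Hsp90, Dnaja, Dnajb, Dnajc and numbered Cct families except Hspa5, Hsp90b1 and Dnajb11, which serve in the endoplasmic reticulum. The choice used symbols alone and no measured value, and it let in several further proteins of the endoplasmic reticulum. RNA of NIH3T3 cells, an immortalised mouse fibroblast line, was compared with RNA of NIH3T3 cells that constitutively overexpress human ERBB2 (HER-2/neu), a receptor tyrosine kinase, from a cytomegalovirus promoter. Both lines grew in the same serum-containing medium with glutamine and antibiotics. The control was the parental line without transfection, so an effect of transfection or of selection cannot be told apart from one of the receptor, and the sources used here do not say whether the transfected line is 1 clone. Each of 5 cDNA arrays carried both lines in different dyes, with 3 arrays from preparation A (A1, A2 and A3) and 2 from preparation B (B1 and B2). The Erbb2-transfected cDNA was in Cy3 on A1, A2 and B1 and in Cy5 on A3 and B2.

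Chaperones bind unfolded or partly folded proteins and keep them from aggregating. Hsp70 proteins bind and release such stretches in an ATP-driven cycle in which J-domain proteins (Hsp40) deliver the substrate and speed hydrolysis, while nucleotide exchange factors such as the Hsp110 proteins reset it. Hsp90 acts later on receptors and kinases, ERBB2 among them, the ring-shaped TRiC complex folds actin and tubulin, small heat shock proteins hold unfolded proteins without ATP, and a separate Hsp70 and chaperonin serve the mitochondrial matrix. Heat shock factor binds inverted repeats of the letters GAA in the promoters of the stress-inducible members.

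Every value below is the log2 of the level in Erbb2-transfected cells divided by that in NIH3T3 cells, so that 1 is a doubling and -1 a halving. A mean ± SD is taken over the 2 preparations (n = 2), within which the dye orientations were averaged first. The direction is likely rather than settled, because it rests on Cy5 being the numerator of the deposited ratios, and under the opposite reading every sign turns. The labels do not say whether the preparations came from separate cultures, so the spread between them may be technical. The p-values of the cell line comparison rest on that spread and, mostly, on a variance shared over all features (1 residual and 10.2 prior degrees of freedom). The scatter of arrays and probes within a preparation enters them only through the preparation means. Because each value is a ratio of pooled cDNA, fewer cells that express a gene and less RNA per cell cannot be told apart.

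Most chaperone genes differed little between the lines. Of 64 genes, 61 had a value on at least 1 array and 29 had one in both dye orientations of both preparations and could be tested. Of these 29, 1 passed the threshold of an adjusted p under 0.05 in limma, Dnajc10, which fell, and 0 rose. Over all 4892 features tested, 6.79% passed, 2.25% as rises and 4.54% as falls, so the 3.45% among chaperone genes is no more than the background. At an unadjusted p under 0.05 in limma, 8 of 29 chaperone genes passed (27.6%), beside 22.9% of all features. None of the 29 reached a 2-fold mean difference, a size that 3.92% of all features reached. Without A3, however, the mean of Dnajc2 moved from -0.57 to -1.25, a 2.37-fold difference, and that of Dnajc19 from -0.48 to -0.92, neither past the threshold in limma (adjusted p = 0.153 and 0.118). With all arrays, the median of the 29 genes was 0.06 (0.05 in preparation A and 0.07 in preparation B), beside -0.02 over all features. Of the means, 17 were above 0 and 12 below. The median size of the difference without its sign was 0.27 against 0.25 over all features.

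The 95% confidence intervals from limma reached between 0.45 and 0.60 to either side of the mean, and for 23 of the 29 genes they lay wholly within a 2-fold change. Their width comes mostly from a variance shared over all features. It does not show how far arrays or probes of 1 preparation differ. Dnajc21, for example, read 1.15 on A1 and -2.32 on A2 but had an interval from -0.49 to 0.40. Single arrays were less even than the means. The same sign on every array with a value was found for 10 of 29 genes (34.5%), 6 above 0 and 4 below, beside 24.3% of all features.

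**Figure D1:**
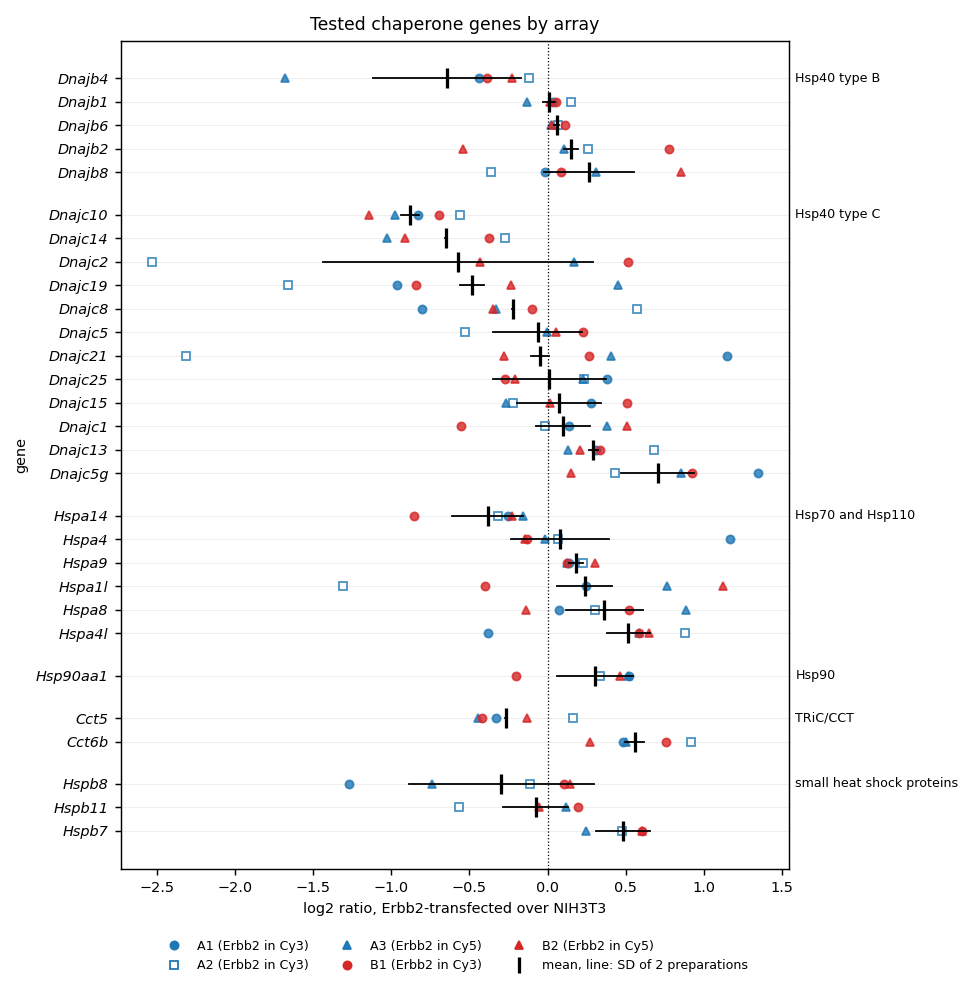
Log2 ratio of Erbb2-transfected to NIH3T3 cells (horizontal axis) for the 29 tested chaperone genes, grouped by subfamily, with each array as a point and the mean of the 2 preparations as a line. The means lie between -0.88 (Dnajc10) and 0.70 (Dnajc5g), and the arrays of many genes fall on both sides of 0.

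Of the cell-type markers examined beside them, 2 of 6 tested fibroblast genes fell, where 4.54% of all features did. These were Col1a1, with a mean of -4.93, and Col1a2, with one of -3.97, both chains of type I collagen (limma, adjusted p = 5.8e-07 for each). Col3a1, another fibrillar collagen, stood at 0.51 ± 0.99 and did not pass. Vim, which encodes vimentin, stood at 0.47 ± 0.32, Fap at -0.60 and S100a4 at -0.01, none past the threshold. At an unadjusted p under 0.05 in limma, 4 of the 6 fibroblast genes passed, beside 22.9% of all features. Of the epithelial, endothelial and muscle markers, 3 genes could be tested and 0 passed in limma, with 0 at an unadjusted p under 0.05 too. Ratios give no absolute level, so the presence of a marker cannot be read from them. No probe on the array was named for Erbb2, and the transfected gene was therefore not checked. Arrays held between 5368 (A1) and 17463 (B1) probe values, and 35 (A1 and A3) to 59 (B1) of the chaperone genes. The part of the type I collagen difference or of array coverage in the chaperone values was not tested.

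Among the Hsp70 and Hsp110 genes, 6 of 9 were tested and 0 passed, with a median of 0.21 and a range from -0.38 to 0.52. Hspa8, the constitutive cytosolic Hsp70, had log2 ratios of 0.07 on A1, 0.31 on A2, 0.89 on A3, 0.52 on B1 and -0.14 on B2, with a mean of 0.36 ± 0.24 (limma, adjusted p = 0.336). It was above 0 on 4 of 5 arrays. Hspa9, the Hsp70 of the mitochondrial matrix, read 0.14, 0.23, 0.12, 0.12 and 0.30 on A1, A2, A3, B1 and B2. Its mean was 0.18 ± 0.04, and all arrays were above 0 by little, although its 3 probes differed in sign on 3 of 5 arrays. Hspa14, an Hsp70 that works at the ribosome, had values of -0.25 (A1), -0.32 (A2), -0.16 (A3), -0.86 (B1) and -0.23 (B2). All 5 were below 0, the mean was -0.38 ± 0.23, and the adjusted p from limma was 0.311. The 2 probes of Hspa14 had opposite signs on 2 of the 4 arrays that measured both, with 0.49 and -0.95 on B2. Dnajc2, the J protein that forms a complex with Hspa14 on the ribosome, had a mean of -0.57 ± 0.87, with a value of -2.54 on A2, far from 0.17 on A3, 0.51 on B1 and -0.43 on B2.

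The Hsp110 proteins release nucleotide from Hsp70. Hspa4l, the member also known as Apg-1, had the highest mean of the Hsp70 and Hsp110 genes, 0.52 ± 0.14 (limma, adjusted p = 0.162). It read -0.38 on A1, 0.88 on A2, 0.59 on A3, 0.59 on B1 and 0.65 on B2, so that A1 alone was below 0. Its 2 probes had the same sign on each of the 3 arrays that measured both. Hspa4, or Apg-2, read 1.17 on A1, 0.07 on A2, -0.02 on A3, -0.13 on B1 and -0.15 on B2. On A1 only 1 of its 2 probes had a value, and that probe read 0.63 on A2. The mean of Hspa4 was 0.08 ± 0.31, and its 2 probes had opposite signs on all 4 arrays that measured both. Hsph1, or Hsp105, the stress-inducible member of this branch, was measured on A1 (-0.30), B1 (0.32) and B2 (-0.16) and was not tested.

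Hspa1l, the Hsp70 known from testis, was highest with the transfected cells in Cy5, although A1, with them in Cy3, was also above 0. It stood at 0.24 on A1, -1.31 on A2 and -0.40 on B1, where the transfected cells were in Cy3, and at 0.76 on A3 and 1.12 on B2, where they were in Cy5. The mean was 0.24 ± 0.17, and the adjusted p for the dye effect in limma was 0.198. Hspa1a, the strongly heat-inducible Hsp70, had values on A2 (-0.87) and B1 (0.24) alone, which differ in sign.

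Hsp90aa1, the inducible cytosolic Hsp90 and the single Hsp90 gene among the members, read 0.52 on A1, 0.33 on A2, 0.52 on A3, -0.20 on B1 and 0.46 on B2. It was above 0 on every array except B1. The mean was 0.30 ± 0.24, with a 95% interval from -0.16 to 0.76, and it did not pass in limma (adjusted p = 0.431).

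Type B J proteins are partners of cytosolic Hsp70, and 5 of 9 were tested. None of the 5 passed, 4 had means above 0, and the median was 0.06. Dnajb1, the main heat-inducible J protein, read 0.04 (A1), 0.15 (A2), -0.13 (A3), 0.05 (B1) and 0.02 (B2), with a mean of 0.01 ± 0.04. All arrays lay close to 0, on both sides of it. Dnajb4 had the lowest mean of this subfamily, -0.64 ± 0.48 (limma, adjusted p = 0.119), with values of -0.44 on A1, -0.12 on A2, -1.68 on A3, -0.39 on B1 and -0.23 on B2. Every array was below 0, and A3, where only 1 of its 2 probes had a value, lay far below the others. The probes had opposite signs on 2 of the 4 arrays that measured both. The probe present on all arrays had a mean of -0.83 and passed in limma when only such probes were used (adjusted p = 0.00796) or each probe was tested (0.0136), whereas without A3 the mean of the gene was -0.29 (0.692). Dnajb8, which suppresses aggregation of polyglutamine proteins and is known from testis, had values of -0.02 on A1, -0.36 on A2, 0.31 on A3, 0.09 on B1 and 0.86 on B2, with a mean of 0.27 ± 0.29. It was highest on the arrays with the transfected cells in Cy5. Dnajb6, a related suppressor of aggregation, had a mean of 0.06 ± 0.02, but its 4 probes disagreed in sign on all 4 arrays with a value. Dnajb2 had a mean of 0.15 ± 0.05.

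Among the untested type B genes, Dnajb13, a J protein of cilia and sperm flagella, was above 0 on its 3 arrays, with 0.85 on A3, 1.07 on B1 and 0.36 on B2. Dnajb14, a J protein of the endoplasmic reticulum membrane, was likewise above 0 throughout, with 0.38 on A2, 0.53 on B1 and 0.38 on B2. The type A proteins, which resemble bacterial DnaJ most closely, had 2 genes and 0 tests. Dnaja3, the partner of mitochondrial Hsp70, read -1.02 on A1, 0.04 on A2 and -0.38 on B1. Dnaja4 read 0.68 on B1 and -1.03 on B2, and neither gene kept a sign.

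Type C proteins share only the J domain and work in many places. Of 25 genes, 12 were tested, 1 fell and 0 rose, with a median of -0.05 and a range from -0.88 to 0.70, the widest of the subfamilies. Dnajc10, also called ERdj5, is a J protein of the endoplasmic reticulum lumen that reduces disulfide bonds of misfolded proteins, and it holds the lower end of that range. Its log2 ratios were -0.83 on A1, -0.56 on A2, -0.98 on A3, -0.70 on B1 and -1.14 on B2. All 5 arrays were below 0, in both dyes and in both preparations. The mean of -0.88 ± 0.06 is a 1.84-fold lower level, with a 95% interval from -1.33 to -0.43 and an adjusted p of 0.0257 in limma. Its 2 probes were below 0 on each of the 4 arrays that measured both. The call was lost without A3 (adjusted p = 0.152), B1 (0.0737) or B2 (0.0909), under quantile normalization (0.0552) and when features with at least 1 value in each preparation were tested (0.124), all in limma. A fit with the repetition number as a block lost the call too (limma, adjusted p = 0.0975). Over all alternatives the adjusted p of Dnajc10 from limma lay between 0.00185 and 0.152, and its mean between -0.996 and -0.77.

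The Dnajc10 promoter is shown because it is the promoter of the gene that passed. It is taken from RefSeq on GRCm38.p6, chr2:80315216-80315515, plus strand, a window of 300 bases that spans the annotated start and lies mostly before it, and the capitals mark the tail-to-tail heat shock repeat TTCNNGAA.
Dnajc10: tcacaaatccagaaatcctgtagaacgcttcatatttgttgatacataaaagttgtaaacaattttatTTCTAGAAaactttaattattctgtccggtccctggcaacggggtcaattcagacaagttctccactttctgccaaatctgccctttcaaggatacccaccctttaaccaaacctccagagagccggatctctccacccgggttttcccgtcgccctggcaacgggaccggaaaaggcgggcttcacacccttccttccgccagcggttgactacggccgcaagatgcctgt
It held no match to the endoplasmic reticulum stress element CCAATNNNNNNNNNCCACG, whereas 6 of 13 promoters of the secretory chaperones described further on did. Among the chaperone promoters 1 of 66 held that element, that of Dnajc3 (1.52%), beside 0.119% of all 32851 promoters in the table.

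Dnajc14, an endoplasmic reticulum membrane J protein that helps receptors reach the cell surface, had a mean of -0.65 ± 0.01 (limma, adjusted p = 0.0847). It was below 0 on all 4 arrays with a value, at -0.27 on A2, -1.03 on A3, -0.37 on B1 and -0.92 on B2, and further below with the transfected cells in Cy5. Dnajc14 passed after centring and when only probes measured in both orientations of both preparations were used. Without A3 its mean was -0.46. Dnajc1, another membrane J protein of the endoplasmic reticulum, read 0.14, -0.02, 0.38, -0.55 and 0.51 on A1, A2, A3, B1 and B2. Its mean was 0.10 ± 0.17, with no common sign. Dnajc25, a transmembrane J protein, had values of 0.38 on A1, 0.23 on A2, 0.23 on A3, -0.27 on B1 and -0.21 on B2. All arrays of preparation A were above 0 and both of preparation B below, which left a mean of 0.01 ± 0.36. Dnajc3, the lumenal J protein p58IPK, was not tested and read -0.60 on A1, -0.42 on A2, -0.07 on B1 and 1.19 on B2.

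Dnajc5g, the gamma form of cysteine string protein, a J protein of vesicle membranes, had the highest mean of all tested members, 0.70 ± 0.24 (limma, adjusted p = 0.0692). It read 1.35 on A1, 0.43 on A2, 0.85 on A3, 0.93 on B1 and 0.15 on B2. All 5 arrays were above 0, but the size varied widely. It passed the threshold in limma with 5 arrays as units (adjusted p = 0.0484), after centring (0.0307) and without A2 (0.0319), whereas its adjusted p was 0.523 without B1. Dnajc5, the alpha form found at synapses, had a mean of -0.06 ± 0.29 and stood at -0.53 on A2, -0.0030 on A3, 0.23 on B1 and 0.05 on B2. Dnajc13, a J protein of endosomes, was also above 0 on each array, with 0.31 on A1, 0.68 on A2, 0.13 on A3, 0.34 on B1 and 0.21 on B2. Its mean of 0.29 ± 0.03 did not pass (limma, adjusted p = 0.428).

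Of the type C proteins of mitochondria, Dnajc19 and Dnajc15 were tested and neither passed. Dnajc19, part of the motor that pulls proteins through the inner membrane, read -0.96 on A1, -1.66 on A2 and -0.84 on B1 with the transfected cells in Cy3, and 0.45 on A3 and -0.23 on B2 with them in Cy5. The orientation means were -1.15 in Cy3 and 0.11 in Cy5, and the overall mean was -0.48 ± 0.08 (limma, adjusted p = 0.187 for the lines and 0.201 for the dye). Dnajc15, the related inner membrane protein, read 0.28, -0.22, -0.27, 0.51 and 0.01 on A1, A2, A3, B1 and B2. Its mean of 0.07 ± 0.27 had no common sign.

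The type C proteins of ribosomes and splicing gave uneven values. Dnajc21, which acts in ribosome assembly, read 1.15 on A1, -2.32 on A2, 0.41 on A3, 0.27 on B1 and -0.28 on B2. A1 and A2 differed in sign although they held the same preparation in the same dyes, and the mean was -0.05 ± 0.06. Dnajc8, a splicing-associated protein, read -0.80 on A1, 0.57 on A2, -0.33 on A3, -0.10 on B1 and -0.35 on B2, with a mean of -0.22 ± 0.0025 although the arrays lie on both sides of 0. Among the untested, Dnajc7, a co-chaperone of both Hsp70 and Hsp90, read 1.30 on A1, 1.45 on A2 and 1.09 on B1 but -0.31 on B2, the only one of its arrays with the transfected cells in Cy5. Dnajc9, a J protein that also binds histones, was below 0 on its 3 arrays, with -0.24 on A1, -0.20 on A2 and -0.32 on B1.

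No TRiC gene passed the threshold, and of 8 genes only 2, Cct5 and Cct6b, could be tested. Cct5, the epsilon subunit, read -0.33 on A1, 0.16 on A2, -0.44 on A3, -0.42 on B1 and -0.13 on B2, with a mean of -0.27 ± 0.0066 (limma, adjusted p = 0.479). It was below 0 on 4 of 5 arrays. Cct6b, a second zeta subunit known from testis, was above 0 on every array, with 0.48 on A1, 0.92 on A2, 0.50 on A3, 0.76 on B1 and 0.27 on B2. The mean of 0.56 ± 0.06 did not pass (limma, adjusted p = 0.133). The other subunits lay on both sides of 0, for example Cct3, the gamma subunit, at 0.31 on A1, 0.43 on A2, -0.35 on B1 and 0.70 on B2. Hspe1, the lid of the mitochondrial chaperonin, was not tested, and read 1.13 on A1, -0.19 on A2, 0.08 on B1 and 0.40 on B2. A1 stood far from the other arrays.

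Among the small heat shock proteins 3 of 8 were tested and 0 passed, with a median of -0.08. Hspb8, which with Bag3 sends misfolded proteins to autophagy, read -1.27 on A1, -0.11 on A2, -0.74 on A3, 0.10 on B1 and 0.14 on B2. The arrays of preparation A were all below 0 and those of preparation B above, so that the mean of -0.30 ± 0.59 describes neither. Hspb7, known from heart muscle, had values of 0.48 on A2, 0.25 on A3, 0.60 on B1 and 0.60 on B2 and a mean of 0.48 ± 0.17 (limma, adjusted p = 0.193). All 4 were above 0 and came from 1 of its 2 probes, since the other had no value on any array. Hspb11, a ciliary transport protein by function, had a mean of -0.08 ± 0.21.

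Hspb1 (Hsp25, the mouse form of Hsp27), which protects the actin cytoskeleton under stress, had the highest single value of the untested members. It read 0.72 on A2, 1.91 on B1 and 1.28 on B2, and had no value on A1 or A3. Preparation A therefore lacked the transfected cells in Cy5. When A3 was left out of the whole comparison, Hspb1 could be tested and its mean of 1.16 ± 0.62, a 2.23-fold higher level, passed with an adjusted p of 0.0464 in limma, where 2.71% of 8074 features passed. Preparation A then rests on A2 alone, a dye effect cannot be told apart from it there, and with all arrays and at least 1 value in each preparation the adjusted p from limma was 0.0945. Hspbp1, which removes nucleotide from Hsp70 and inhibits it, was measured on A2 (0.49), B1 (0.09) and B2 (0.0025), all above 0 but close to it on preparation B.

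The 32 untested members with a value gave 89 values from -1.14 to 1.91, 47 of them above 0. For 26 of the 32, A3 was among the missing arrays. Of those with at least 3 arrays, Hspb1, Dnajb13, Dnajb14 and Hspbp1 were above 0 on each and Dnajc9 below. Dnajb12, Dnajc16 and Hspb6 had no value on any array.

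**Figure D2:**
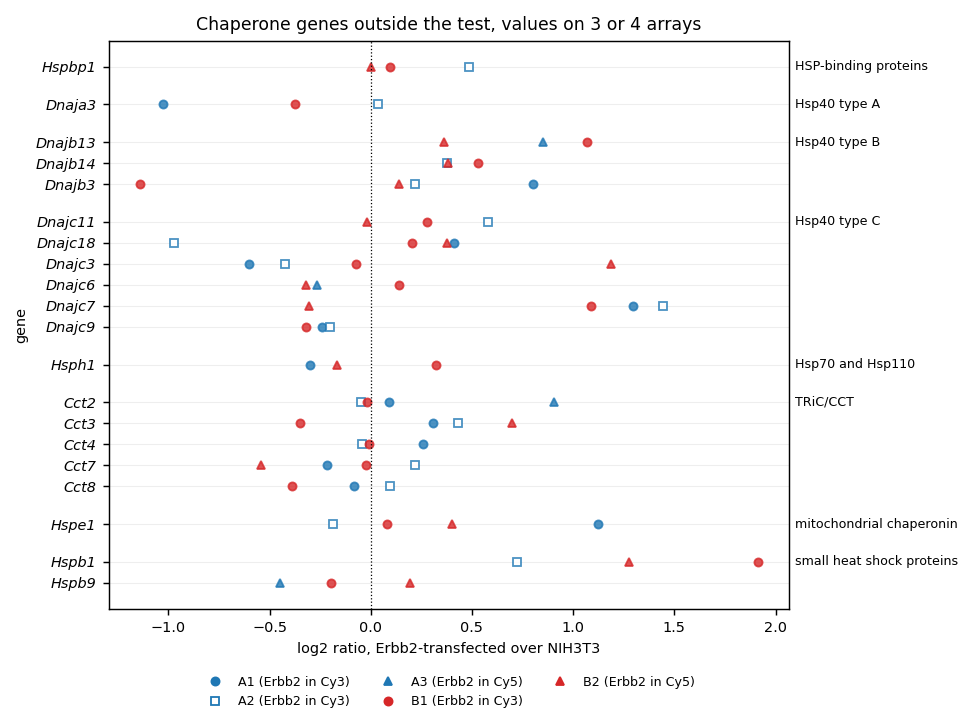
Log2 ratio of Erbb2-transfected to NIH3T3 cells (horizontal axis) for the untested chaperone genes with values on 3 or 4 arrays, with each array as a point. Untested genes with fewer values are not drawn. Hspb1 reaches 1.91 on B1, and Dnajb3 has the lowest value, -1.14 on B1.

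Promoters of the classical heat-inducible genes are shown for comparison with Dnajc10, since their values bear on whether the inducible members moved together. They are from RefSeq on GRCm38.p6 in the same window, Hspb1 at chr5:135887669-135887968 (plus strand), Hsph1 at chr5:149636266-149636565 (minus strand) and Hspe1 at chr1:55087898-55088197 (plus strand), and the capitals mark the head-to-head repeat GAANNTTC or the tail-to-tail repeat TTCNNGAA.
Hspb1: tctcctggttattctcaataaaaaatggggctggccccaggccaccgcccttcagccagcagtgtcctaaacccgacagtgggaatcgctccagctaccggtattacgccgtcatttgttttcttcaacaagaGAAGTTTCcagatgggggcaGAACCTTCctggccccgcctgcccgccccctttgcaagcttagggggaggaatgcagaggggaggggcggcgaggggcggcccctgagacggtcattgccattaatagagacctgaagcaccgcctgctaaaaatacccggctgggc
Hsph1: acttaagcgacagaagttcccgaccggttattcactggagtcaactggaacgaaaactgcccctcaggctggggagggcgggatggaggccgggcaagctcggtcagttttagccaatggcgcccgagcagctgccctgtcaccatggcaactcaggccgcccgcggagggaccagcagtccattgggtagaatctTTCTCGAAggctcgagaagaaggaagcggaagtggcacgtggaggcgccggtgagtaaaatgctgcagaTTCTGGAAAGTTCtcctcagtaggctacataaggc
Hspe1: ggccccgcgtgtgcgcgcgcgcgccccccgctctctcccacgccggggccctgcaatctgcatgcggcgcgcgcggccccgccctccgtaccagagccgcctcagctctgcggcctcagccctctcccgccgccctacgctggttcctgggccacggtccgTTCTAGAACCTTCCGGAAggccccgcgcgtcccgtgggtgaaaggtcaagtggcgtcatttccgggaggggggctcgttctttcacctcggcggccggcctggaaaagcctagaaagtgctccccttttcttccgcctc
Hspb1 has 2 head-to-head repeats. Hsph1 and Hspe1 each have 1 head-to-head repeat and 2 tail-to-tail repeats, which overlap where a run of capitals is longer than 8 bases.

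Promoters were found by symbol for 53 of the 64 genes, 66 promoters in all. Either repeat, both searched as written since each reads the same on the opposite strand, was present in 18 of the 66 (27.3%), beside 15.1% of all 32851 promoters of that length. The head-to-head form was in 22.7% of the chaperone promoters against 7.86% of all, and the tail-to-tail form in 12.1% against 8.52%. Of the 6 tested genes with such a repeat, 2 had means above 0 and 4 below (median -0.28), from -0.88 (Dnajc10) to 0.70 (Dnajc5g). Of the 18 tested genes with a promoter and no match, 12 were above 0 and 6 below (median 0.08). A match is a string of letters and not a bound site. Among the genes named here as heat-inducible, Dnajb1 stood at 0.01 and Hsp90aa1 at 0.30. Hspa4l, which was listed with other heat-shock-inducible genes, stood at 0.52. None of these passed the threshold, and none was among the genes in which a repeat was found. Of the tested genes with a repeat, Dnajb4 at -0.64 and Hspb8 at -0.30 lay below 0 and did not pass in the main comparison either. Hspb1 was above 0 on its 3 arrays and passed without A3, as given above, while Hspe1, Hsph1 and Hspa1a, also untested, had values of both signs.

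Grouped by compartment, a grouping made after the values were seen, the 9 genes of the endoplasmic reticulum had 4 tests with a median of -0.32 and the fall of Dnajc10. The 8 mitochondrial genes had 3 tests and a median of 0.07. The 8 genes best known from testis had 4 tests, Dnajc5g, Cct6b, Dnajb8 and Hspa1l, with means from 0.24 to 0.70 and a median of 0.41. All 4 were above 0 and 0 passed, and 24 of the 32 values of the whole group were above 0. In the endoplasmic reticulum, mitochondrial and other groups 13 of 30, 17 of 28 and 71 of 137 values were above 0. These values share arrays and are not replicates. Values equal to a ratio of small whole numbers, which low spot signals give, made up 13.9% of the probe values of these 8 genes, 8.33% of those of the endoplasmic reticulum, 10.8% of those of mitochondria and 13.2% of those of the 39 other genes.

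Neither preparation nor dye moved a chaperone gene past its threshold in limma. For the difference between preparations 0 of 29 passed, beside 0.0204% of all features, and at an unadjusted p under 0.05 0 of 29 passed against 6.75% of all features. The lowest adjusted p among the chaperone genes was 0.75 in limma, that of Hspb8. For the dye, 0 of 29 passed beside 0.593% of all features, and 2 (Hspa1l and Dnajc19) had an unadjusted p under 0.05, against 13.2% of all features. The means of the 2 dye orientations had opposite signs for 11 of the 29 genes.

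**Figure D3:**
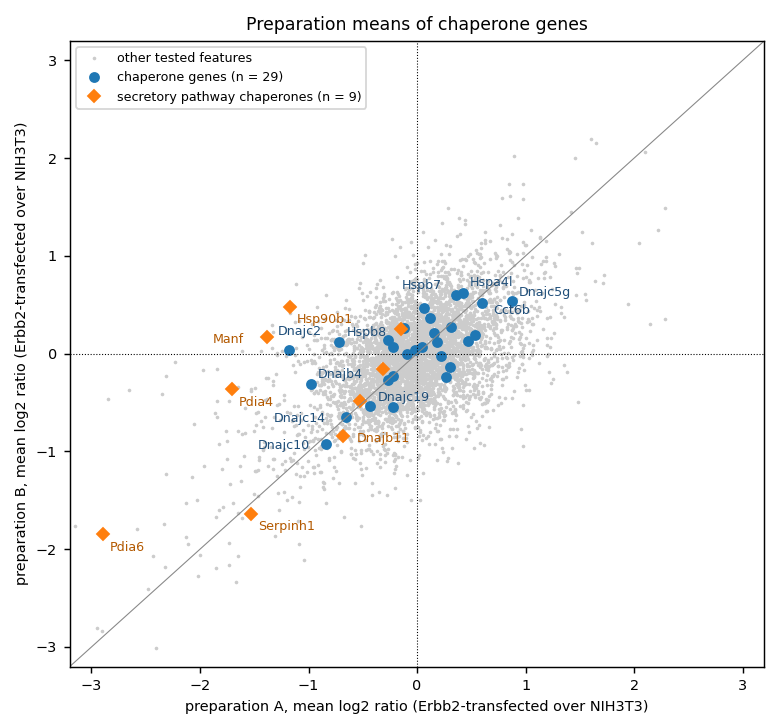
Mean log2 ratio of preparation A (horizontal axis) against preparation B (vertical axis) for all tested features (grey), the 29 chaperone genes (blue) and 9 secretory pathway chaperones (orange), with the line of equal values. The axes end at 3.2 to either side and leave out 18 features. Dnajc10 lies near the line at -0.88 on average, Hspb8 and Dnajc25 lie on different sides of 0 in the preparations, and Pdia6 lies lowest of the orange points.

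**Figure D4:**
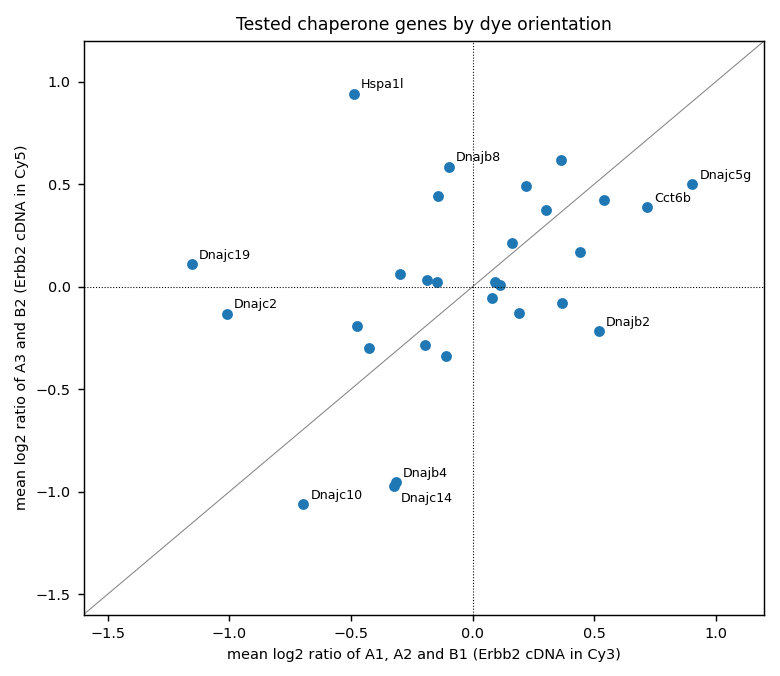
Mean log2 ratio of Erbb2-transfected over NIH3T3 cells with the transfected cells in Cy3 (horizontal axis) and in Cy5 (vertical axis) for the 29 tested chaperone genes. Hspa1l (-0.49 and 0.94) and Dnajc19 (-1.15 and 0.11) lie farthest from the line of equal values, and Dnajc10 (-0.70 and -1.06) is below 0 on both axes.

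Probes of 1 gene often disagreed. Of the 16 chaperone genes with several probes, 14 had at least 2 on the same array, which gave 45 pairs of gene and array. On 22 of these (48.9%) the probes had opposite signs, and the median over genes of the gap between the highest and lowest probe was 0.63. Over all 1535 genes with such probes, the share was 43.9% of 3708 and the median gap 0.47. Hspa4 and Dnajb6 disagreed on all 4 shared arrays, whereas Dnajc10 and Hspa4l never did. This gap exceeds 0.27, the median size of the tested chaperone genes' means without their sign.

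**Figure D5:**
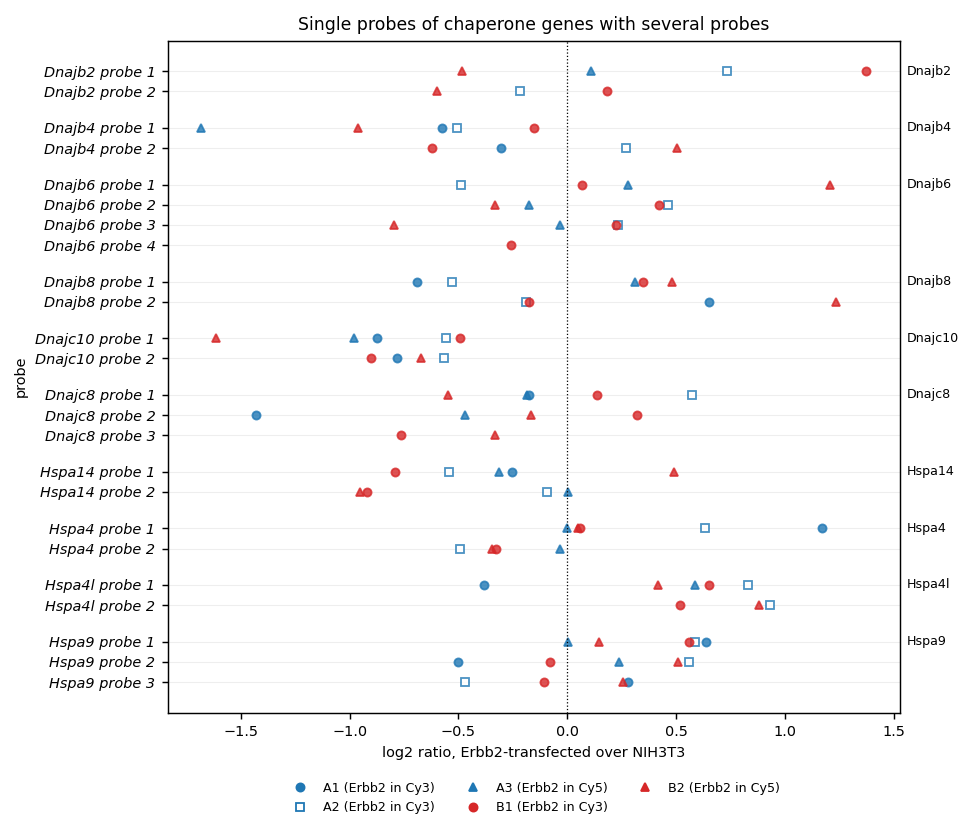
Log2 ratio of Erbb2-transfected to NIH3T3 cells (horizontal axis) for each probe of the chaperone genes with at least 2 probes measured together on at least 3 arrays, with each array as a point. Both Dnajc10 probes lie below 0 on every array with a value, while the probes of Dnajb6 spread over both sides.

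The counts of co-chaperones that passed stand beside 6.79% of all features. Of 8 tested partners of Hsp90, 1 passed and fell, Stip1 (Hop), which joins Hsp70 to Hsp90. It read -0.24 on A1, 0.40 on A2, -1.58 on A3, -0.07 on B1 and -1.48 on B2, so that the low values are those with the transfected cells in Cy5. Its mean was -0.76 ± 0.02 (limma, adjusted p = 0.0483), and the call was lost without A1 (0.0522). Without A3 the mean was -0.35 (limma, adjusted p = 0.648), and without B2 it was -0.41 (0.427). The largest of the other 7 were Aarsd1 at 0.65, Ttc4 at -0.44 and Fkbp4 at 0.34, and the median of the list was 0.01. Of 5 tested cofactors of Hsp70 0 passed, with Bag6 at 0.49 and Bag2 at 0.42. Of 7 tested prefoldin subunits and TRiC partners 0 passed, with Pfdn4 at 0.53 and Tbcb, a tubulin cofactor, at -0.50. Of 5 tested mitochondrial chaperones and proteases 0 passed, with Bcs1l at -0.45. At an unadjusted p under 0.05 in limma, these 3 lists had 1, 1 and 0 genes. The partners of Hsp90 had 2 of 8, and the share of all features was 22.9%.

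Genes around the heat shock response were few. Hsbp1, a binding partner of heat shock factor, stood at -0.28 and did not pass. Mt2, a metal-binding metallothionein induced by many stresses, rose by 0.76 ± 0.06 and was above 0 on each array, from 0.59 to 0.91 (limma, adjusted p = 0.0494), a call lost without A3 (0.195), B1 (0.314) or B2 (0.0678). The other genes listed with Mt2 as heat-shock-inducible were untested. Mt1, another metallothionein, read 0.26 on A1, -0.80 on A2, 0.12 on B1 and 0.49 on B2. Hmox1 read -1.43 on B1 alone, and Vcp read -0.67 on A2 and 1.04 on B2. Cryab, or alpha-B crystallin, a small heat shock protein outside the Hspb symbols, was untested and read -1.45 on A1, -2.23 on A2 and -1.14 on B1, all with the transfected cells in Cy3.

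The chaperones of the secretory pathway that the choice of symbols left out had lower means than most genes described above. Of 9 tested, 3 fell and 0 rose, where 4.54% of all features fell and 2.25% rose. Their median was -0.61 (-1.18 in preparation A and -0.37 in preparation B), beside 0.06 for the 29. Those that passed in limma were Pdia6, a disulfide isomerase, at -2.37 ± 0.74 (adjusted p = 0.000235), Serpinh1, the collagen chaperone Hsp47, at -1.58 ± 0.08 (0.000793), and Dnajb11, a J protein of the lumen, at -0.77 ± 0.11 (0.0483). The Dnajb11 call was lost without A3 (0.186), B1 (0.128) or B2 (0.152). The next in size was Pdia4, another isomerase, at -1.04 ± 0.95 (0.0535). Hsp90b1, the Hsp90 of the endoplasmic reticulum, was -1.18 in preparation A and 0.48 in preparation B, against 0.47 and 0.13 for cytosolic Hsp90aa1. Hspa5, its Hsp70, was untested and read -1.93 on A1, -2.21 on A2 and -0.32 on B1. The difference between the 2 sets of chaperones was not tested as such, since both lists were chosen with earlier results known.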

How the data were processed

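Both cell lines were hybridised together on 5 arrays, and, per the labels, the authors subtracted background from mean spot intensities and scaled each array to a median ratio of 1. The deposited values behave as ratios of both dyes on a log2 scale: after removal of a constant per array, 6.05% to 18.0% of values were, to within 6e-07, logarithms of quotients of integers no larger than 100, compared with 0.0992% to 0.183% when that constant was shifted. This bears on the base only. Cy5 was taken as numerator because it is channel 1 of every array in the labels. Arrays of opposite dye orientation correlated negatively (r from -0.17 to -0.54), so ratios were turned here to Erbb2-transfected over NIH3T3. The sources used here do not give the rule for empty values. Their number, and the number of arrays, limits the precision.

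Of 20205 probes, the platform annotation gives 11723 a single symbol and 806 more than 1, and leaves 7676 unnamed. All 64 Entrez identifiers of the chaperone genes were found in the GRCm38.p6 gene table, with 0 symbols changed. Hspd1 was left out because its probes list a pseudogene too. Probes of 1 symbol were averaged to a gene. The 2 preparation means of 4892 features were tested for a difference from 0 in limma 3.58.1 (lmFit and eBayes, R 4.3.3), with Benjamini-Hochberg adjustment over all of them, a threshold of 0.05 and 10.2 prior degrees of freedom. Preparation and dye effects were tested in limma on the 5 arrays. The procedure was tested on simulated data. Genes named with each array's value are those measured on all 5 arrays or past a threshold, and in subfamilies without one, up to 3 with the most arrays. Untested genes are named where at least 3 arrays have 1 sign, and in related lists, those past the threshold and otherwise up to 4 of the largest. Array values of Dnajc14, Dnajc2, Dnajc5 and Hspb7, and the genes Dnajc3, Dnajc7, Cct3, Hspa1a, Hsph1, Hspa5 and Cryab were added after their values were seen. So were Mt1, Hmox1, Vcp, Fap and S100a4. The members and lists were chosen with earlier results of these data known. Alternatives covered replication unit, centring, scaling, missing values, probe summary and leaving out each array. Plots used matplotlib 3.10.9 (Python 3.11.15).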

Additional observations from a re-analysis of the deposited data

Results flagged for a closer look

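Among 22 chaperone genes with a value on all 5 arrays, 1 array stood far from the other 4 by Dixon's test in 5 genes. Chance marks about 1 in 20 groups of like values. That rate need not hold here, because the arrays differ in preparation, in dye orientation and, for some genes, in the probes with a value. Dnajb4 read -1.68 on A3 and between -0.44 and -0.12 on the others. Hsp90aa1 read -0.20 on B1 and between 0.33 and 0.52 elsewhere. Hspa14 read -0.86 on B1 and between -0.32 and -0.16 elsewhere. Hspa4 read 1.17 on A1 and between -0.15 and 0.07 elsewhere. Only 1 of its 2 probes had a value on A1, and that probe read 0.63 on A2. Hspa4l read -0.38 on A1 and between 0.59 and 0.88 elsewhere. The values of Dnajb4 on A3 and of Hspa4l on A1 also rest on 1 of 2 probes. The arrays concerned are A1 and B1 for 2 genes each and A3 for 1.

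In 3 genes every array of preparation A lay on the other side of 0 from every array of preparation B. The differences, A minus B, were 0.52 for Dnajc25, -0.40 for Dnajc5 and -0.83 for Hspb8, and the adjusted p for the preparation in limma was 0.902, 0.952 and 0.75. None of these differences passed the threshold. For Dnajc5, A2 and A3 each rest on a different probe. The probe that gave -0.53 on A2 read 0.08 on B1 and -0.49 on B2, so it did not separate the preparations.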

How the results depend on the processing

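For the 22 genes measured on all arrays, 313 values from alternative settings kept their side of the threshold and, Dnajc10 apart, moved by less than the SD between preparations, 60 moved further, 9 came to pass the threshold and 6 no longer passed. The sign changed in 15 values of 7 genes with means from -0.05 to 0.24, none past the threshold. The count of all features that passed was 332. It was 535 after centring on probes present on all arrays, 193 after quantile normalization, 149 with at least 1 value in each preparation, 564 with only probes measured in both orientations of both preparations, 544 with each probe as its own feature and 548 at an adjusted p under 0.1. In the same order the count of chaperone genes, 1 otherwise, was 3, 0, 0, 4, 3 and 3, and it was 2 with 5 arrays and a dye term. The replicate block, a fit with the repetition number as a block, gave 37 features and 0 chaperone genes, with a median of 0.1178 and Dnajc10 at an adjusted p of 0.0975 in limma. The numbers count arrays within a preparation and pair nothing. Leaving out each array gave 198 to 498 features, 0 to 2 chaperone genes and medians from -0.0007 to 0.15. The median of 0.06 became 0.0084 with at least 1 value in each preparation and 0.0758 with only probes measured in both orientations. Without the values equal to small whole-number ratios, an alternative chosen after seeing the data, 2 chaperone genes passed, Dnajc10 and Dnajc5g, with a median of 0.0278, and 1, Hspa1l, passed for the dye. Leaving out each array gave 0 to 2 chaperone genes for the dye, the 2 being Dnajc19 and Hspa1l without A1. For the preparation 0 passed in each setting run. The causes were not tested. Missing values limit which genes could be tested: of the 32 untested genes with a value, A3 was missing for 26 and B2 for 12.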
